A study of Mus musculus with 18 samples.

Results

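The genes described here are 10 transcription factors of naive pluripotency: Klf2, Klf4, Klf5, Esrrb, Tbx3, Tfcp2l1, Nr0b1, Prdm14, Zfp42 and Gbx2. They were chosen by name, and all 10 were found among the 21859 genes of the gene table. Of the 32253 PROMPTs (promoter upstream transcripts) in the second table, 8 carried the symbol of a member, and Tbx3 and Gbx2 had none. The measurement was TT-seq, transient transcriptome sequencing, which isolates and sequences the RNA that cells label with 4-thiouridine (4sU) within a few minutes of its addition.

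The 18 libraries came from E14 mouse embryonic stem (ES) cells, in 6 groups of 3. All cells carried osTIR1, the plant F-box protein that directs auxin-bound degron proteins to the proteasome, integrated in the genome, and all were grown without feeders in serum with LIF (leukemia inhibitory factor), the GSK inhibitor CHIR99021 and the MEK inhibitor named PD0325091 in the labels. Clone 1 and clone 2 carried an auxin-inducible degron and a V5 tag on SPT16, a subunit of the histone chaperone FACT, and untagged cells carried osTIR1 alone. After 48 h of undisturbed growth, each of the 3 lines was given 3-IAA, an auxin, or ethanol (EtOH, 0.1%) for 24 h, and RNA was then labelled with 4sU for 5 min. The labels give 500 nM 3-IAA, whereas the study's methods give the same figure in micromolar units. The tagged cells were 2 clones of a single parental line, which limits them as a model.

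In the ES cell, the naive state is held by a web of transcription factors that activate one another and themselves, on top of the core factors OCT4 (Pou5f1), SOX2 and NANOG. LIF acts on this web through STAT3, GSK inhibition relieves repression by TCF7L1, and MEK inhibition removes the ERK signal that moves cells toward formative and primed states. A PROMPT is a short, unstable RNA transcribed upstream of a promoter in the direction opposite to the gene. In these tables a PROMPT was counted in the 1 kb upstream of a start site, on the other strand.

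The only level the tables give for a gene is the authors' mean normalised count, a DESeq2 base mean that averages libraries across treatments, and which of the 18 libraries entered it is not given in the sources used here. It is 1 value per gene, with no value per library and no spread. So this mean does not set apart 3-IAA and EtOH libraries, or the 2 clones and the untagged cells, and the order of neighbouring genes was not tested. The authors' own comparison of depleted with control cells, held in the same tables, was not used, and nothing below is a response to loss of SPT16. Depth per library is not given by the tables. The authors' means of all genes were summed, and the members took 0.371% of that sum.

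Promoter sequences are shown for the members whose upstream transcription stood at the 2 ends of the range. RefSeq promoter windows (GRCm38.p6), of 250 bases before to 50 bases after a start site, were held for 7 of the 10 members, with 2 windows for Esrrb, and for none of Klf5, Tbx3 and Prdm14. Tfcp2l1 and Klf4 had the highest PROMPT levels of the members, and Zfp42 and Esrrb the lowest. To which of the 2 Esrrb starts its PROMPT level belongs is not given in the sources used here. The windows are chr1:118627695-118627994 on the plus strand for Tfcp2l1, chr4:55532426-55532725 on the minus strand for Klf4, chr8:43306960-43307259 on the minus strand for Zfp42, and chr12:86360867-86361166 on the plus strand for the upstream start of Esrrb. Each is written 5′ to 3′ in the direction of the gene, and capitals mark matches, on either strand, to 7 motifs. The motifs were the TATA-box letters TATAAA, the GC-box letters GGGCGG, the core of KLF sites written CACCC, the extended half-site of estrogen-related receptors written AAGGTCA, the octamer ATGCAAAT, the STAT site TTCNNNGAA and the common promoter element CCAAT.
Tfcp2l1: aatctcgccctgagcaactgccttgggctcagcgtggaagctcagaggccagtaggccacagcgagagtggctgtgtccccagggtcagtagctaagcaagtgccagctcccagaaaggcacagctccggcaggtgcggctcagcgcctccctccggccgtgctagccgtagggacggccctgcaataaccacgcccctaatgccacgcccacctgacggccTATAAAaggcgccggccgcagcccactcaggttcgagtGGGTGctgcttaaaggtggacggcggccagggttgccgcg
Klf4: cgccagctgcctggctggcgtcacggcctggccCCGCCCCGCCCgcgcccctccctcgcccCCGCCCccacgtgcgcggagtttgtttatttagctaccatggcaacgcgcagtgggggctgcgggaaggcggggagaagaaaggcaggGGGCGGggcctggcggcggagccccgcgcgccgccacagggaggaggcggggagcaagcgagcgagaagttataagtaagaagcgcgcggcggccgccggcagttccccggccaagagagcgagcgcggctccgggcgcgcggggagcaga
Zfp42: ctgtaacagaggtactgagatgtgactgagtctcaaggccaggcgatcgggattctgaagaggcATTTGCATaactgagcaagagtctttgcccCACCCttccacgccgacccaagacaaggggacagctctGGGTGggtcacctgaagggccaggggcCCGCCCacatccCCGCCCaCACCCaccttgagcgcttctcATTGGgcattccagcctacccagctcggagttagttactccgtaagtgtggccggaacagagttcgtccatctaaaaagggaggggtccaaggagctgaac
Esrrb: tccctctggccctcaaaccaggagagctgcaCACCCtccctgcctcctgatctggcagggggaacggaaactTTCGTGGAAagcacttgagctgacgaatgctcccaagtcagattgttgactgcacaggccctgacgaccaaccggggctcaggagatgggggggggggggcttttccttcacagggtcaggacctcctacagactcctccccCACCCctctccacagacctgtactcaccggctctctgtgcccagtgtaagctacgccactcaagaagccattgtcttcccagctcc

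The Tfcp2l1 window held TATAAA 28 bases before the start site and a single CACCC match. Nr0b1 was the other member with TATAAA, 32 bases before its start, among 13.6% of the 32851 windows in the table. The Klf4 window held GGGCGG 4 times, of which the 2 farthest upstream share a base, and no other motif. GGGCGG was found in 35.7% of all windows and in 4 of the 8 member windows, those of Gbx2, Klf4, Klf2 and Zfp42. The Zfp42 window was the most varied, with 3 CACCC, 2 GGGCGG, 1 CCAAT and 1 ATGCAAAT match, the last 186 bases before the start. ATGCAAAT was held by 1.74% of all windows.

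Neither the upstream nor the downstream Esrrb window held TATAAA or GGGCGG. The upstream one held TTCNNNGAA 178 bases before the start, a match found in 8.30% of all windows and in no other member window. CACCC stood in 7 of the 8 member windows, the exception being Klf4, and in 57.5% of all windows. AAGGTCA was in none of the 8 and in 4.72% of all windows. These are matches of letters only, and binding at them was not measured here.

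The windows also differed in base composition. Klf4 had 74.3% G and C and an observed-to-expected CpG ratio of 0.974, against medians of 52.7% and 0.384 over all windows. Klf2 followed with a CpG ratio of 0.889, Gbx2 with 0.861 and Tfcp2l1 with 0.656. Nr0b1 had 0.551 and Zfp42 0.441, both above the median window. The 2 Esrrb windows lay below it, at 0.266 upstream and 0.318 downstream. Of the 6 members with both a window and a PROMPT value, Zfp42 and Esrrb had the lowest CpG ratios and also the lowest PROMPT levels. The 2 orders differed among the others. Tfcp2l1, with the highest PROMPT level (108 counts), had a lower CpG ratio than Klf4 (33.1 counts) and Klf2 (19.6 counts). Nr0b1 had the same PROMPT level as Klf2, 19.6, at a lower ratio. This is a description over 6 genes, and a relation was not tested.

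Before levels were compared between genes, the part of a gene over which reads had been counted was read from the table itself. Of 190 listed genes that lie within another listed gene of the same strand and share no base with its exons, 188 (98.9%) were listed at 0, against 5.76% of the 20447 genes that overlap no other listed gene of their strand. Reads were therefore taken as counted over whole gene spans, introns included, with reads of overlapping genes left out. Levels are given as the mean count per kb of gene span, with the level per kb of merged exon beside it. None of the 10 members overlaps another listed gene of its strand.

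All 10 members lay above the median gene, per kb of span, per kb of exon and with no division by length. The median member had 1000 counts per kb of span and the median gene 21.7, over 20140 genes with reads and a length. Klf2 was the highest, with 2429 counts per kb of span, and Gbx2 the lowest, with 144, a 16.9-fold range. With no division by length, 9 of the 10 members had a mean of 1000 or more, as did 40.5% of all genes with reads. The exception was Gbx2, at 464, close to the median gene at 421.

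**Figure D1:**
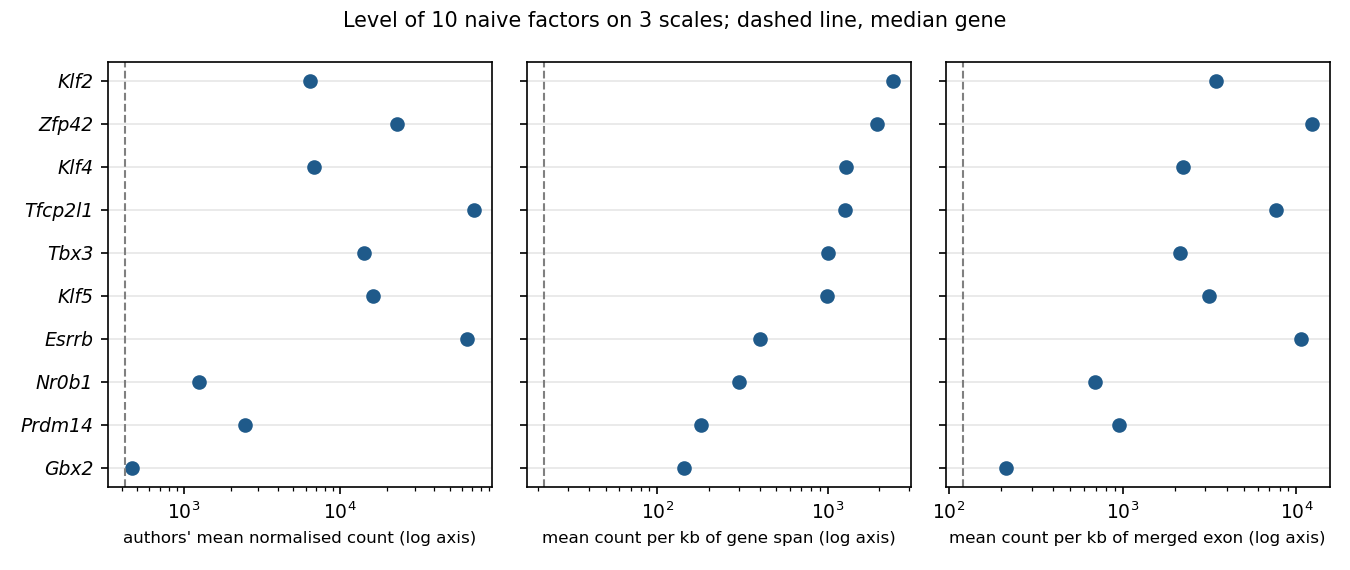
Level of each of the 10 members (points) as the authors' mean normalised count, per kb of gene span and per kb of merged exon, each on a log axis, with the median of all genes with reads as a dashed line. Every point lies to the right of its line, and Esrrb moves from position 2 of 10 on the first scale to 7 per kb of span.

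The 3 Krüppel-like factors are zinc finger proteins that bind the CACCC core and GC-rich sites. Per kb of span Klf2, Klf4 and Klf5 stood at positions 1, 3 and 6 of the 10 members, and by mean count at 7, 6 and 4. Klf2, which sustains the naive state under MEK and GSK inhibition, lies at chr8:72319033-72321656 (plus strand, GRCm38). Its mean of 6374 counts fell on a span of 2.62 kb, the shortest of the members, and gave rank 65 among the 20140 genes per kb of span. Klf4, a target of LIF and STAT3 and one of the classical reprogramming factors, lies at chr4:55527143-55532466 on the minus strand. It had a mean of 6775 counts, only 1.06-fold that of Klf2, but on a span of 5.32 kb its level per kb was 1273. Klf5, at chr14:99298691-99315036 on the plus strand, had a mean of 16260 counts and 995 per kb of span. Klf5 thus ranked first of the 3 by mean count and last per kb of span, while per kb of exon Klf2 had 3451, Klf5 3126 and Klf4 2222.

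Within the family of 17 listed KLF genes, the order per kb of span was Klf2, Klf4 and Klf5, and Klf14 was the lowest at 0.934. Klf9 came next after them, with 833 per kb of span, and was named after its value was seen. Per kb of exon Klf9 was the highest of the 17, at 4654, with Klf2 at position 2, Klf5 at 3 and Klf4 at 5. The leading place of the 3 naive factors in their family therefore depended on the length used. The median KLF gene had 217 counts per kb of span, and 14 of the 17 lay above the median gene.

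Tfcp2l1 encodes a CP2-family factor that links both LIF and GSK inhibition to self-renewal, and it was the member with the most reads. The gene lies at chr1:118627945-118685168 on the plus strand. Its mean of 72140 counts was rank 8 among the 20157 genes with reads, and it and Esrrb together made up 65.8% of the members' summed means. On a span of 57.2 kb its level was 1261 counts per kb, within 1.01-fold of Klf4. Each other gene of the CP2 and Grainyhead family was lower. Ubp1 had 249 counts per kb of span, 5.06-fold less than Tfcp2l1, and Tfcp2 had 104, 12.1-fold less. Grhl3, at 112, stood between those 2, Grhl1 had 45.7, and Grhl2 was the lowest of the 6 at 6.05. Tfcp2l1 headed this family per kb of exon too.

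Both orphan nuclear receptors of the set were the highest of their families. Esrrb, an estrogen-related receptor repressed by TCF7L1 and released by GSK inhibition, had a mean of 64437 counts, rank 19 of all genes with reads. The gene spans 161 kb at chr12:86361117-86521628 on the plus strand, the longest of the members, and its level per kb of span was 401. Per kb of merged exon, 6.05 kb in all, the level was 10656 and Esrrb stood second of the members. Esrra had 101 counts per kb of span, 3.98-fold less than Esrrb, and Esrrg 0.106. Per kb of exon the first of these ratios was 42.8, so the size of the difference, but not its direction, turned on the length.

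Nr0b1 (DAX1) is an atypical receptor that lacks the usual DNA-binding domain and acts as a corepressor in the network. It lies on chrX:86191764-86195947 (plus strand), with a mean of 1257 counts and 300 per kb of span. It was eighth of the 10 members per kb of span and ninth on both other scales. Its single paralog in the family, Nr0b2, had 1.11 counts per kb of span.

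Zfp42 encodes REX1, the zinc finger protein most used as a marker of the naive state, and is related to Yy1. It lies at chr8:43295063-43306980 on the minus strand, with a mean of 23221 counts. It was second of the members per kb of span, at 1948, and first per kb of exon, at 12345, where it stood at rank 18 of all genes. Yy1 had 462 counts per kb of span, 4.21-fold less. Yy2 was listed at 0, but it lies within another listed gene of its strand, so that 0 is no measure of its transcription.

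Tbx3, a T-box factor downstream of LIF signalling, lies at chr5:119670669-119684724 on the plus strand. Its mean was 14118 counts and its level 1004 per kb of span, within 1.01-fold of Klf5. The other 3 genes of its subfamily were each below the median gene per kb of span. Tbx2 had 11.7 counts per kb, Tbx4 7.49 and Tbx5 0.892, which put Tbx3 86.2-fold above the nearest of them. Per kb of exon Tbx4 was the nearest, with a ratio of 32.6.

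Prdm14 and Gbx2 were the lowest 2 members per kb of span. PRDM14 restrains FGF signalling and DNA methyltransferase expression and is also needed in primordial germ cells. Its gene, at chr1:13113457-13127163 on the minus strand, had a mean of 2460 counts and 180 per kb of span. It did not head its family on any of the 3 scales. Prdm4 was higher per kb of span, at 256, Prdm2 was next below at 147, and Prdm12 was the lowest of the 14 at 0.318. Gbx2, a homeobox factor induced by LIF and STAT3, lies at chr1:89927956-89931179 on the minus strand. It had 144 counts per kb of span and 213 per kb of exon, and it was the lowest member on every scale. Gbx1 was lower still, at 7.74 per kb of span.

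**Figure D2:**
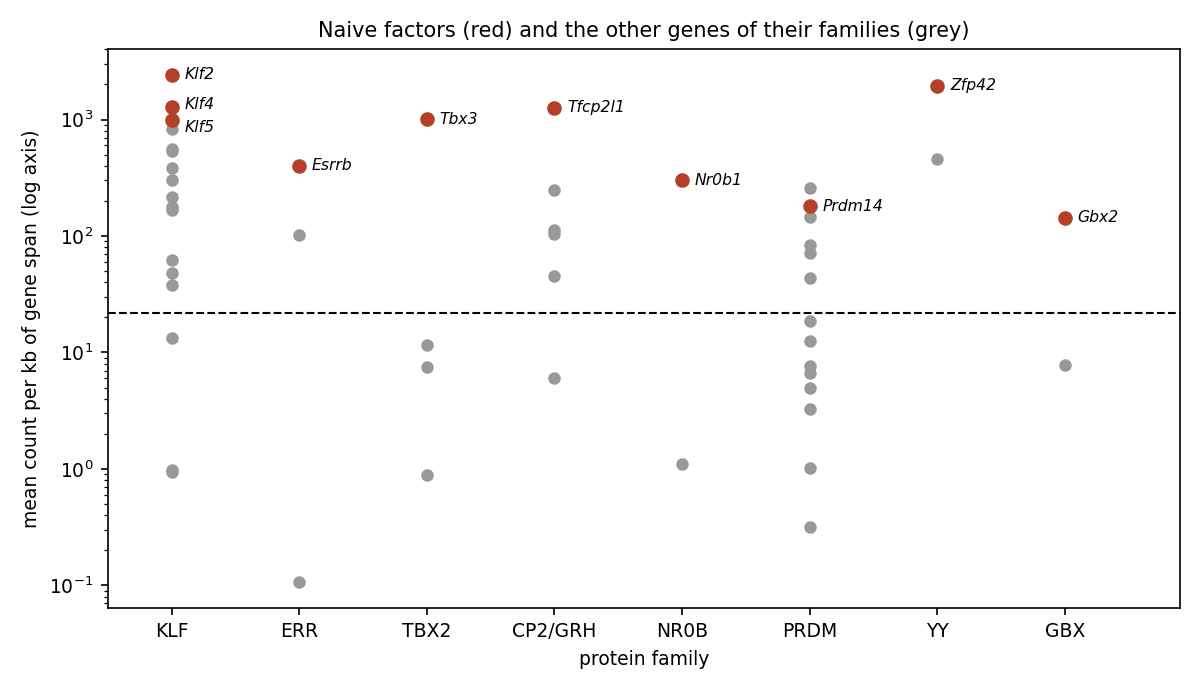
Mean count per kb of gene span (log axis) for the members (red) and the other listed genes of their 8 protein families (grey), with the median of all genes with reads as a dashed line. A red point stands at the top of every family except PRDM, where Prdm4 at 256 lies above Prdm14 at 180. Yy2, listed at 0, is not drawn.

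Against all genes, the members fell in the upper part of the distribution. Per kb of span, 8 of the 10 were within the highest 6.83% of genes. Of genes with reads, 0.323% were at or above Klf2, 0.437% at or above Zfp42, 0.799% at or above Klf4 and 0.809% at or above Tfcp2l1. The share was 1.07% for Tbx3, 1.10% for Klf5, 4.12% for Esrrb and 6.83% for Nr0b1. For Prdm14 it was 15.5% and for Gbx2 20.4%. The members are also mostly short genes, and 8 of them had a span below the median gene's 19.6 kb. Esrrb and Tfcp2l1 are the other two, and with no division by length they were the highest members, with 0.0943% and 0.0397% of genes at or above them. For each of the 8 shorter members that share was then larger than per kb of span. It was 1.46% for Zfp42, 13.3% for Klf2, 37.3% for Nr0b1 and 49.1% for Gbx2. Per kb of exon the share was smaller than per kb of span for Zfp42, Esrrb and Tfcp2l1 and larger for the others. It reached 23.4% for Nr0b1 and 43.4% for Gbx2.

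**Figure D3:**
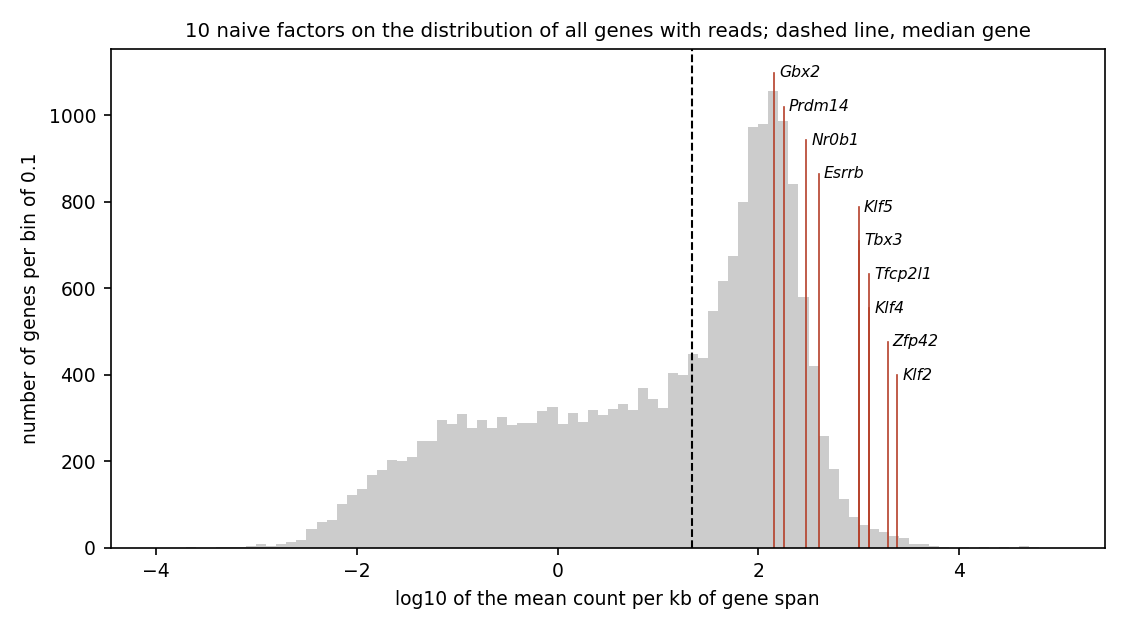
Number of genes by log10 of the mean count per kb of gene span (bins of 0.1), for genes with reads and a length, with the 10 members as red lines and the median gene as a dashed line. All members lie right of the median, and Gbx2 and Prdm14 lie near the peak of the histogram.

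The core factors, which are shared by naive and primed cells, covered much the same range as the members per kb of span. Sox2 had 2910 counts per kb of span, Nanog 2070, Pou5f1 1595, Sall4 555 and Utf1 187. Their median, 1595, compares with 1000 for the 10 members, and on this scale the 2 ranges overlap almost wholly. Per kb of exon the medians were 2910 and 2674, and the highest values 6596 and 12345. With no division by length the order of the medians turned, with 7585 for the core factors and 10447 for the members. The highest means were then 14788 and 72140. All 5, which were also the markers used to check the labelled cell type, lay above the median gene per kb of span and of exon. With no division by length 4 did, and Utf1, at 248, did not.

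Genes of the formative and primed states were lower in the middle but not apart from the members. The 10 genes of this list had a median of 38.2 counts per kb of span, and 6 of them lay above the median gene, or 5 with no division by length. Etv5, an ETS factor downstream of FGF and ERK, was the highest at 494. That was above Esrrb per kb of span, whereas per kb of exon Etv5 had 7035 and Esrrb 10656, and the means were 28865 and 64437. Zic2, a zinc finger factor of the primed epiblast, had 171, and Foxd3, a forkhead factor, 139. Fgf5, the growth factor that marks the formative epiblast, was the lowest at 0.483. Because the means average libraries with and without SPT16, the cells in which these reads arose are not known.

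Markers of other lineages were mostly low. Of the 6 primitive endoderm markers, none exceeded the median gene per kb of span. Gata4 was the highest at 6.26 counts per kb, followed by Pdgfra at 4.62, Gata6 at 2.95, Sox17 at 1.58, Dab2 at 1.16 and Sox7 at 0.378. Nor did any of the 6 fibroblast markers, from Thy1 at 4.94 and Col1a1 at 1.51 through Twist2, Col1a2 and Col3a1 to Postn at 0.00396. Of the trophectoderm markers, Tfap2c at 119 and Eomes at 25.1 were above it, Cdx2 had 20.8, and Gata3, Krt7 and Elf5 lay between 5.65 and 0.102. Of the mesoderm markers, Tbx6 at 30.3 and T at 25.7 were above it, Gsc had 16.4, and Mixl1, Mesp1 and Hand1 lay between 3.28 and 0.792. Of the neural markers Sox1, at 50.7, was above it, while Neurog2 had 2.17 and Pax6 1.26. Neurod1 and Tubb3 were listed at 0, but both lie within another listed gene of their strand, so that these zeros are no measure of transcription. Per kb of exon Tfap2c was the single marker above the median gene, and with no division by length Tfap2c and Gata4 were. Tfap2c was below Gbx2, the lowest member, per kb of span but above it on the other scales, with 292 against 213 per kb of exon and a mean of 1074 against 464.

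How the 3 signalling pathways that the culture medium acts on compared with the members depended on the length used. In the LIF pathway, Socs3, the feedback inhibitor of STAT3 signalling, had 418 counts per kb of span, the receptor subunits Il6st and Lifr had 305 and 111, Stat3 itself had 171, the kinase Jak1 67.3 and Lif 63.2. In the Wnt pathway, Ctnnb1, which encodes beta-catenin, had 626, and Axin2, a feedback target, 348. The kinases Gsk3a and Gsk3b had 200 and 179, and the TCF and LEF factors Tcf7, Tcf7l1 and Lef1 had 143, 126 and 49.3. Of the 11 genes of the FGF and ERK list, Etv5 at 494 and the ligand Fgf4 at 424 were the highest per kb of span. Fgfr2 was the lowest at 3.06 on this scale alone. It stood at position 7 of the 11 per kb of exon, with 876, and at position 5 by mean count, with 9049. The list medians were 141, 179 and 185 counts per kb of span, and 8 of the 10 members were above all 3 medians. Per kb of exon the medians were 1014, 1926 and 997, with 7 members above all 3. With no division by length they were 8448, 10605 and 7578, against 10447 for the members, and 5 members were above all 3.

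PROMPT levels were compared among the 8 members with a row. The tables of genes and PROMPTs were normalised separately, so a level set across them is approximate. Upstream of Tfcp2l1 the authors' mean was 108 counts, the highest of the 8, and 1.10% of the 23257 PROMPTs with reads were at or above it. Klf4 followed with 33.1, then Nr0b1 and Klf2, both at 19.6, Klf5 at 16.7 and Prdm14 at 9.82. Zfp42 had 5.66, although its gene was second of the members per kb of span. Esrrb had 0.148, so that the gene with the second highest mean count of the set had the lowest PROMPT, a 727-fold difference from Tfcp2l1. A mean this far below 1 count per library rests on few reads, so the size of that fold is uncertain. Without Esrrb, a choice made after the values were seen, the PROMPT range was 19.1-fold, against 57.4-fold for the mean counts of the same genes. The median PROMPT with reads had 0.815 counts, and Esrrb was the single member below it.

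Highly transcribed genes gave a closer comparison. Among 6589 genes with a mean of 1000 or more and a PROMPT row, the median PROMPT was 3.15 counts, and 7 of the 8 members were above it. As a share of the gene's own mean, the median was 0.0756%, and 6 of the 8 members were above it. Nr0b1 had the highest share, 1.56%, followed by Klf4 with 0.489%, Prdm14 with 0.399%, Klf2 with 0.307%, Tfcp2l1 with 0.150% and Klf5 with 0.102%. Zfp42 had 0.0244% and Esrrb 0.000230%, both below the median, and the Esrrb share again rests on few PROMPT reads. The order of the shares changed with gene and PROMPT each taken per kb. Tfcp2l1 then led with 8.57%, before Nr0b1 with 6.54%, Prdm14 with 5.47% and Klf4 with 2.60%, and these 4 were above the median of such genes, Klf4 by less than the digits given. Zfp42 and Esrrb were the lowest in both orders. RefSeq holds 2 start sites for Esrrb, and which of them the PROMPT row refers to is not given in the sources used here.

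**Figure D4:**
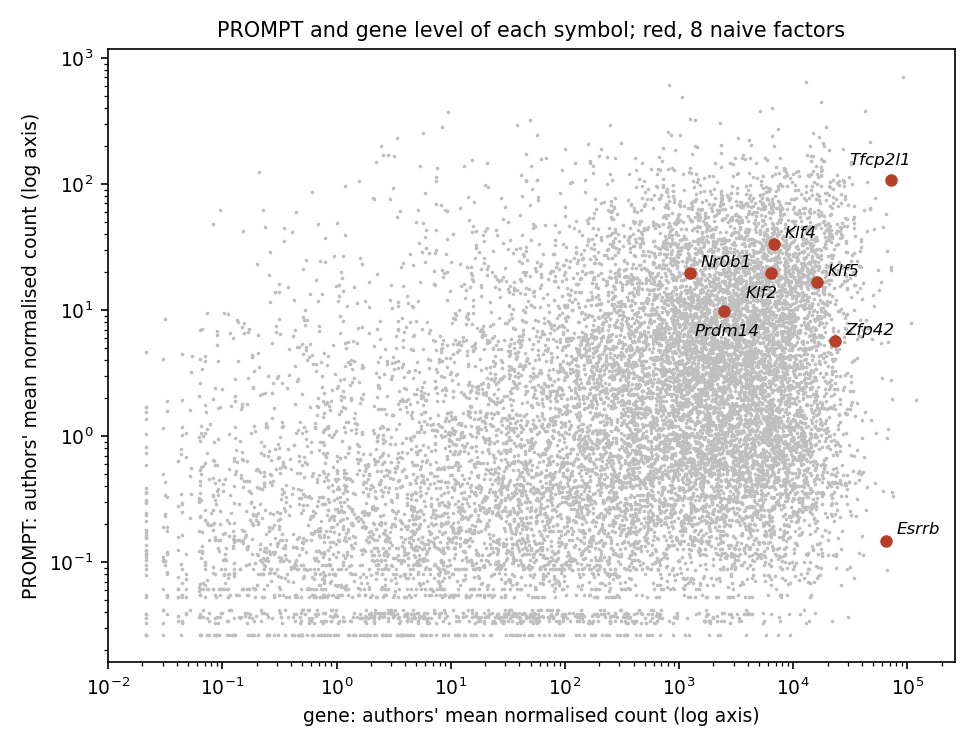
PROMPT level against gene level, both as the authors' mean normalised count on log axes, for every symbol with reads in both tables (grey) and for 8 members (red). Esrrb stands far below the other members, at 0.148 counts, and Tfcp2l1 above them at 108.

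The 2 members with no PROMPT row, Tbx3 and Gbx2, both have an annotated non-coding gene on the other strand in the 1 kb before their start. These are Tbx3os1 at Tbx3 and D130058E05Rik at Gbx2, and no other member has an annotated gene there. Over all protein-coding genes, 97.9% of 16279 genes with no annotated gene on the other strand in that window had a PROMPT row. With only genes of non-coding or other types there, 38.5% of 2352 had one, and with a protein-coding gene there, 38.9% of 3083. The absence of the 2 rows is thus no measure of upstream transcription at Tbx3 and Gbx2.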

How the data were processed

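TT-seq was run on 18 libraries in 6 groups of 3. Per the labels, the authors' processing used STAR, HTSeq, deepTools and DESeq2 with mm10 (versions not given in the sources used here), while the study's methods name featureCounts for counting. The deposited value used here is the authors' mean normalised count (a signal with no spread), per gene or PROMPT, averaged over libraries. The same tables hold the authors' comparison of depleted with control cells (log2 fold change, its standard error, p-value and adjusted p-value), and these columns were not used. Tables of numbered enhancer RNA and other non-coding regions were not used. No test was made, since the mean used has no value per library.

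Gene spans and merged exons came from Gencode vM21 (GRCm38), matched by Ensembl ID for 21817 of 21859 genes. Levels per kb of exon were the planned main scale, and spans replaced them once the table showed counting over introns. Genes with a mean above 0 were ranked. Members were named in full, and other lists up to 7 genes in full or by the 3 highest and the lowest, of which 2 genes are not reported here. Members and lists were chosen with earlier results of these data known. Ranking and motif code was tested on simulated data. Python 3.11.15, pandas 2.3.3 and numpy 2.4.6 were used.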

Additional observations from a re-analysis of the deposited data

How the results depend on the processing

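The highest member exceeded the lowest 16.9-fold per kb of gene span, 58.0-fold per kb of merged exon and 156-fold with no division by length, the highest being Klf2, Zfp42 and Tfcp2l1 in turn and the lowest always Gbx2. The count of members above the median gene was 10 on each of these scales and among genes with a mean of at least 1. Ranking all listed genes, or those with a mean of at least 1 or 10, moved no member's percentile by more than 1.5-fold. Per kb of exon, 9 of the 10 percentiles moved by more, and with no division by length all 10 did. Among PROMPTs, a minimum mean of 1 moved 7 of 8 percentiles by more than 1.5-fold, because fewer PROMPTs were ranked. No gene named here had several rows, so joining rows changed nothing. Taking gene and PROMPT per kb multiplied each of the 8 shares by the span of its gene, by construction. In the 100 bases nearest the start, the share of windows with each of the 7 motifs was lower, 4.94% for TATAAA and 21.7% for GGGCGG. These bases are part of the same windows, so the shares could not have been higher, by construction. Leaving out a replicate could not be run, and no paired analysis was possible because each gene has a single pooled mean. Depth per library is unknown.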
